A study of Mus musculus with 6 samples.

Results

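The 10 genes described here encode the AP-1 transcription factors and closely related immediate early products: the FOS family (Fos, Fosb, Fosl1, Fosl2), the JUN family (Jun, Junb, Jund), Atf3, Egr1 and Ier3. They were taken from a fixed list of symbols matched to Ensembl identifiers in GENCODE M21, 10 genes of 54838 in the count tables, and all 10 passed the expression filter that kept 11924 genes. Ier3 encodes a small stress-induced protein that is not known as a DNA-binding factor, so it belongs to the group by its induction and not by its function. RNA sequencing was done on neutrophils taken by FACS from mouse corneas infected 24 h earlier with PAO1, a Pseudomonas aeruginosa strain. The mice were WT or Il1a-/-, lacking the gene of the cytokine IL-1 alpha, with 3 libraries of each genotype and no uninfected group. The labels number the replicates as biological and give no mouse strain, age, sort gate or animal, so each p-value measures only how these libraries vary.

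AP-1 is a dimer of basic leucine zipper proteins. JUN proteins pair with each other, with FOS proteins or with ATF proteins, whereas FOS proteins need a JUN partner. Dimers of FOS and JUN bind the sequence TGANTCA, and dimers that include ATF or CREB proteins prefer TGACNTCA. Fos, Egr1 and other immediate early members are transcribed within minutes of a signal through MAP kinases, and IL-1 receptors and Toll-like receptors are among the receptors that send such signals. In neutrophils, as in other cells, several of them are induced by adhesion, microbial products and the handling of tissue.

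The promoters of Fos, Fosb, Jun and Junb are printed because Fos and Fosb had the most uneven levels across libraries and Jun and Junb the most even. Promoter windows from RefSeq (build GRCm38.p6) were used for 8 of the 10 genes. Fosl1 and Egr1 were not among them, so the motif counts cover neither gene. Bases 120 to 21 before the RefSeq start are given 5′ to 3′ on the gene's strand, with capitals marking TGACG, the core of the ATF and CREB element, or TGACNTCA. The stretches lie at chr12:85473770-85473869 (Fos, plus strand), chr7:19310066-19310165 (Fosb, minus strand), chr4:95052243-95052342 (Jun, minus strand) and chr8:84978769-84978868 (Junb, minus strand).
Fos: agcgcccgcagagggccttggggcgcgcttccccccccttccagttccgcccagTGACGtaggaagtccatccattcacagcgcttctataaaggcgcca
Fosb: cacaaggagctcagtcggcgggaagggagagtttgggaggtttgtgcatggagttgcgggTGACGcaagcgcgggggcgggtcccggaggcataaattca
Jun: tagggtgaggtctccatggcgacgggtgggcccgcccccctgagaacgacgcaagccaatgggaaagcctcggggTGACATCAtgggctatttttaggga
Junb: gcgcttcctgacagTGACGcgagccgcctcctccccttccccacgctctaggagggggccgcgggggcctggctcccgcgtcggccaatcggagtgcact

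In these stretches TGACG lay 66 to 62 bases before the start of Fos, with another at 129 to 125 outside the printed part, and 60 to 56 before that of Fosb. In Junb it lay farther out, 106 to 102 bases before the start. Jun carried TGACATCA 45 to 38 bases before its start. Over the 250 bases before the start, on both strands, TGACG was present in 4 of the 8 promoters (Fos, Fosb, Junb and Atf3) and in 17.8% of 32851 promoters in the RefSeq table. TGACNTCA was found in 1 of 8 (7.49% of all) and TGANTCA in 0 of 8 (6.75% of all). The CArG box, the binding site of serum response factor, was in 0 of 8 (1.47% of all). That count covers neither Egr1 nor bases farther from the start, so it does not show that these genes lack the site. The NF-kB site was matched in 4 of 8 (Fos, Fosb, Fosl2 and Ier3; 3.9% of all). A TGACNTCA with G as its N also contains TGACG. Positions count from the RefSeq start, which differs from the outer start of the GENCODE gene for several members, Junb and Fosb among them. The shift is large for Atf3, whose window was 191183284 to 191183583 while the outer start lies at 191218039. For Fosl2 the window was 32136222 to 32136521 and the outer start 32135801. A match describes letters only.

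The libraries held between 22855676 and 33626008 gene counts. Il1a, which checks the labels, had 136694 to 272865 counts in the wild-type libraries and 92 to 174 in the others. On the leading principal component of all tested genes knockout replicate 2 lay at 67.3, and the other 5 libraries between -32.9 and 2.1. Neutrophil markers summed to between 27031 and 33477 CPM (counts scaled to a common, TMM-adjusted library size) in every library. Across all genes 12 of 11924, or 0.101%, passed the threshold of 0.05 on the adjusted p of edgeR (quasi-likelihood), and 5.99% had an unadjusted p under 0.05.

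None of the 10 genes differed between genotypes by the test: 0 were called higher and 0 lower in the knockout (edgeR adjusted p from 0.866 to 0.999), and 0 had an unadjusted p under 0.05. Estimates were lower in the knockout for 6 genes and higher for 4, with a median log2 fold change of -0.06, beside 0.0045 over all tested genes. That median was -0.18 without knockout replicate 2, -0.02 without knockout replicate 1 and -0.01 when scaled by library size alone. For 8 of 10 genes the 95% interval excluded changes of 2-fold or more both ways, and for 7 it excluded 1.5-fold. For 2 of the 10, Junb and Jund, the genotypes did not overlap, with the knockout lower; over all tested genes that share was 11.6%. Summed, the genes took 1.21% to 1.29% of scaled counts in wild-type libraries, against 1.01% to 1.32% without Il1a. In bulk RNA, fewer cells with a transcript and less transcript per cell cannot be told apart.

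**Figure D1:**
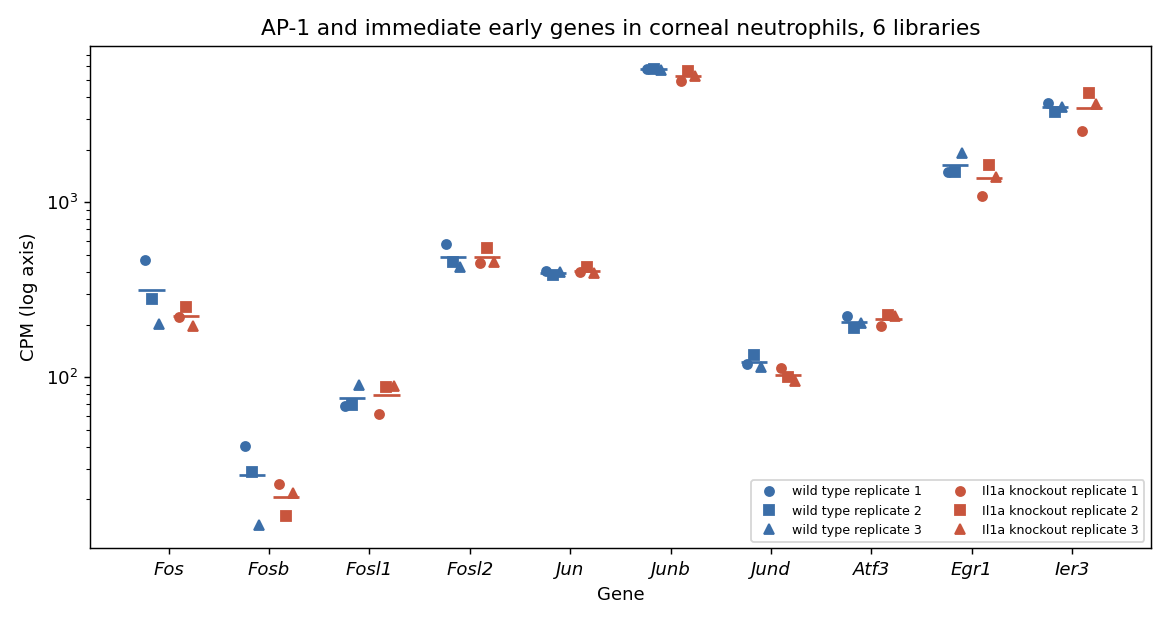
CPM of each gene (log axis) in the 3 wild-type libraries (blue) and the 3 Il1a knockout libraries (red); marker shapes give the replicate number and bars the group mean. Fos and Fosb spread most among the wild-type libraries, and Junb is the highest gene by CPM in every library.

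Fos, the founding gene of its family (chromosome 12, 85473890 to 85477273, plus strand), was at 469, 280.1 and 203 CPM in wild-type replicates 1, 2 and 3. In the knockout it was at 221, 252 and 197 CPM. Wild-type replicate 1 stood well above the other 5 libraries, which overlapped. The means were 317 ± 137 and 223 ± 27 CPM (SD, n = 3 each), with a log2 fold change of -0.51 (SE 0.26, 95% interval -1.09 to 0.07, edgeR adjusted p = 0.87). Without wild-type replicate 1 the log2 fold change was -0.13, and without wild-type replicate 3 it was -0.75. Thus 1 library set most of the size of the Fos estimate.

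Fosb (chromosome 7, 19302696 to 19310051, minus strand) encodes a close relative of Fos induced by the same kinds of signal. At a lower level, it repeated the order of the wild-type libraries of Fos. Its wild-type libraries were at 40.1, 28.6 and 14.2 CPM and its knockout libraries at 24.4, 16.03 and 21.7 CPM. The knockout order differed, since replicate 2 was the highest knockout library for Fos and the lowest for Fosb. Wild type therefore held both the highest and the lowest library. The log2 fold change was -0.42 (SE 0.32, 95% interval -1.13 to 0.30, edgeR adjusted p = 0.94), and -0.06 without wild-type replicate 1. Leaving out wild-type replicate 3 gave -0.73. Leaving out knockout replicate 2 gave -0.27 for Fosb and -0.61 for Fos. The high-to-low ratio of Fosb within wild type was 2.83, and that of Fos was 2.31. Within the knockout these ratios were 1.52 and 1.28.

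Genes of the heat shock list, which respond to handling and heat, were not uniformly high in wild-type replicate 1. The chaperone gene Hspa1a was at 60.9 CPM there and at 27.1 and 19.7 CPM in the other wild-type libraries, with 40.3 to 46.6 CPM in the knockout. Hspa1b followed the same order within wild type, at 120.02, 56.5 and 34.8 CPM. Hspa8 and Hsp90aa1 were also highest in wild-type replicate 1, at 483 and 211 CPM. Dnajb1 was at 93 CPM in wild-type replicate 1, below the 107 and 99.7 CPM of the other wild-type libraries. Hspb1, Bag3 and Hspe1 were highest in wild-type replicate 2, at only 3.61, 2.38 and 2.00 CPM there. Of 13 tested genes on the list, 4 were highest in wild-type replicate 1 and 5 in wild-type replicate 2. The summed list was at 1284 CPM in wild-type replicate 1 and between 853 and 1143 CPM in the other 5 libraries. The part of handling in the Fos and Fosb values was not tested.

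Fosl1 and Fosl2 encode FRA-1 and FRA-2, FOS family proteins that lack the strong activation domain of Fos and are usually induced later. Fosl1 (chromosome 19, 5447547 to 5455946, plus strand) was at 68.1, 69.4 and 90.5 CPM in wild type and at 61.6, 88.1 and 88.9 CPM in the knockout. Fosl2 (chromosome 5, 32135801 to 32157842, plus strand) was at 575, 454 and 428 CPM in wild type and at 452, 549 and 459 CPM in the knockout. For both genes the groups overlapped across nearly their whole range. The log2 fold change was 0.07 for Fosl1 (SE 0.17) and 0.0031 for Fosl2 (SE 0.14). The interval for Fosl2, from -0.31 to 0.31, lies within a change of 1.24-fold in either direction.

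Jun, the gene of the protein that names its family and a gene without introns (chromosome 4, 95049034 to 95052222, minus strand), was among the steadiest of the 10. It was at 404, 383 and 400.05 CPM in wild type, and the knockout libraries were at 398, 429 and 394 CPM, so the groups overlapped. Its log2 fold change was 0.04, with a 95% interval from -0.19 to 0.27. Its range over the 6 libraries was 0.16 on the log2 scale, against 1.25 for Fos and 1.49 for Fosb.

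Junb, whose protein can restrain Jun as well as activate its own targets (chromosome 8, 84974484 to 84978718, minus strand), was the most abundant of the 10 by CPM. It was at 5772, 5814 and 5717 CPM in wild type and at 4973, 5646 and 5311 CPM in the knockout. Every knockout library lay below every wild-type library, although the closest pair differed by little. The means were 5768 ± 49 and 5310 ± 336 CPM (SD, n = 3 each). The log2 fold change was -0.12 (SE 0.10, 95% interval -0.34 to 0.10, edgeR adjusted p = 0.94), so a decrease larger than 1.27-fold is outside the interval.

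Jund, usually described as the constitutively expressed JUN gene (chromosome 8, 70698949 to 70700616, plus strand), was at 119, 133 and 114 CPM in wild type. In the knockout it was at 113, 99.6 and 95.5 CPM. The groups did not overlap, but wild-type replicate 3 and knockout replicate 1 nearly met. The log2 fold change was -0.25 (SE 0.12, 95% interval -0.52 to 0.02), the smallest p of the 10 genes at 0.069 before adjustment (edgeR adjusted p = 0.87).

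The unstranded count reports Jund far below the reads that map to it. Jund is a single exon of 1668 bases, and the antisense transcript Gm11175 covers 877 of them (52.6%). Reads in such overlaps are left out of the unstranded column, as the strand columns show: summed, they gave Jund 18120, 23704 and 20121 counts in wild type against 3191, 4140 and 3548 unstranded. In the knockout the sums were 19853, 17150 and 12599 against 3610, 3229 and 2187. Between 81.2% and 82.6% of the reads over Jund were therefore missing from the unstranded count. Gm11175 itself had 0 unstranded counts in all 6 libraries and 10396 to 19545 in the sum. The kit does not mark strand, so reads of this pair in the overlap cannot be told apart.

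Counted over both strand columns, Jund averaged 696 ± 60 CPM in wild type and, in the knockout, 568 ± 50 CPM (SD, n = 3 per group). Its groups again did not overlap. That log2 fold change was -0.29 (SE 0.11), with an unadjusted edgeR p of 0.030 and an adjusted p of 0.78. Jun was affected to a smaller degree, since its antisense neighbour Junos covers 232 of 3189 exon bases. Between 18.03% and 18.95% of reads over Jun were left out, and its log2 fold change was 0.06 with them included. For the other 8 genes the sum differed from the unstranded count by at most 0.107%. These include Fosl1 and Junb, whose exons overlap those of Ccdc85b and Prdx2 in GENCODE M21. For Fosl1 that overlap covers 57.2% of exon bases and left almost no trace in the counts. Whether the annotation behind the counts holds this overlap was not tested.

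**Figure D2:**
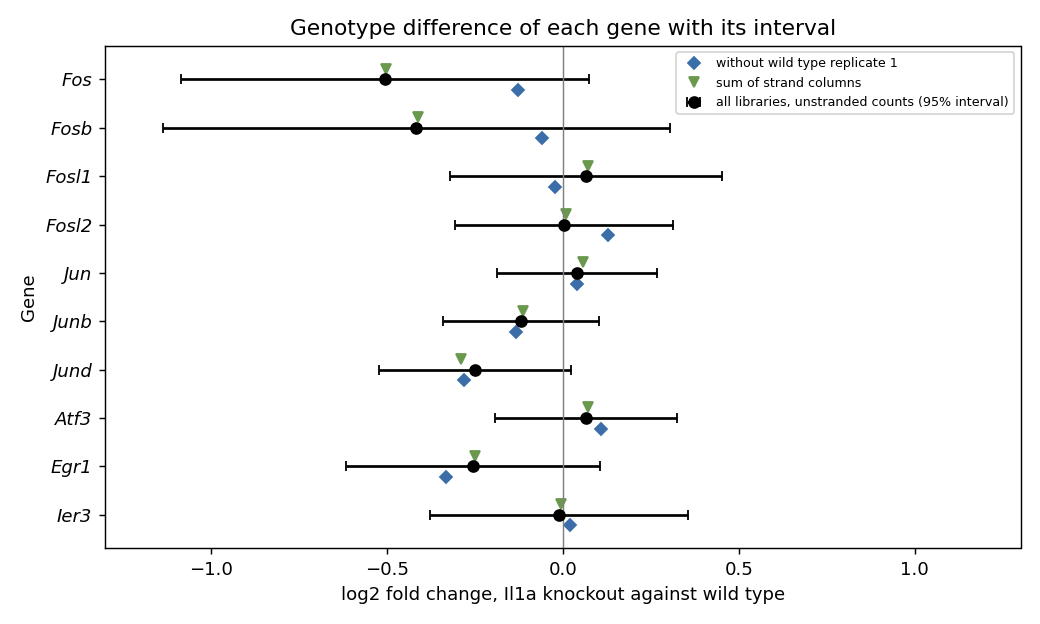
Log2 fold change of each gene, Il1a knockout against wild type, with its 95% interval (black), beside the estimates without wild-type replicate 1 (blue diamonds) and from the sum of the strand columns (green triangles). All intervals include 0, and leaving out wild-type replicate 1 moves Fos from -0.51 to -0.13 and Fosb from -0.42 to -0.06.

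Atf3, a stress-induced gene whose protein dampens inflammatory transcription downstream of Toll-like receptors (chromosome 1, 191170296 to 191218039, minus strand), was even across libraries. It was at 223, 192 and 205 CPM in wild type and at 197, 228 and 224 CPM in the knockout. The groups overlapped, and the log2 fold change was 0.07 with a 95% interval from -0.19 to 0.32. With a library left out it ran from 0.01 (wild-type replicate 2) to 0.12 (knockout replicate 1).

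Egr1 encodes a zinc finger factor that binds GC-rich sites and is induced through serum response factor (chromosome 18, 34859823 to 34864984, plus strand). It was at 1495, 1490.2 and 1925 CPM in wild type and at 1085, 1632 and 1401 CPM in the knockout. Knockout replicate 1 was the lowest library and wild-type replicate 3 the highest. The means were 1637 ± 250 and 1372 ± 275 CPM (SD, n = 3 each), and the log2 fold change was -0.25 (SE 0.16, 95% interval -0.61 to 0.11, edgeR adjusted p = 0.92). It was -0.12 with either knockout replicate 1 or wild-type replicate 3 left out, and -0.41 with knockout replicate 2 left out.

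Ier3, which influences cell survival and NF-kB signalling (chromosome 17, 35821684 to 35822923, plus strand), was at 3718, 3289 and 3505 CPM in wild type. In the knockout it was at 2559, 4230.1 and 3646 CPM, which spans the wild-type values on both sides. The knockout libraries differed by a ratio of 1.65, against 1.13 in wild type. The log2 fold change was -0.01 (SE 0.17, 95% interval -0.38 to 0.36).

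The libraries did not share a common high or low across the genes. Wild-type replicate 1 was the highest library for Fos, Fosb and Fosl2, and knockout replicate 2 for Jun, Atf3 and Ier3. Knockout replicate 1 was the lowest for Fosl1, Junb, Egr1 and Ier3. Knockout replicate 2, which stood apart over all genes, was the lowest for 0 of the 10.

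Levels can be set against each other per exon length, here as CPM per kb of merged exon over the 6 libraries. Ier3 was at 2263 to 3740.2 and Junb at 2161 to 2527, and these ranges overlapped. Egr1 followed at 242 to 429, apart from the genes above and below it. Jun (120.2 to 135), Fos (83.9 to 199) and Atf3 (89.05 to 106) came next, with overlap between Jun and Fos and between Fos and Atf3.

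Below these, the unstranded count placed Jund at 57.3 to 79.9, Fosl2 at 44.2 to 59.4 and Fosl1 at 30.3 to 44.5 CPM per kb, each overlapping the next. Fosb was the lowest, at 2.27 to 6.43 CPM per kb. With the strand columns summed, Jund moved from the seventh place to the third, at 317 to 458 CPM per kb, overlapping Egr1. The place of Jund in the order thus depended on how overlapping reads were counted. Merged exon length covers all annotated transcripts, which lowers the level of a gene with long unused ends.

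The make-up of each family within a library does not depend on library scaling. In the FOS family, Fos made up 66.7%, 58.2% and 48.7% of the summed level per length in wild type, against 53.7%, 51.1% and 47.02% in the knockout. Fosl2 made up 19.9%, 22.9% and 24.9% in wild type, against 26.7%, 27.04% and 26.5% in the knockout. The Fosl2 shares did not overlap, and the difference of 4.19 percentage points had an exact two-sided permutation p = 0.1, the smallest that 3 against 3 libraries can give. That p was 0.35 after Benjamini-Hochberg adjustment over the 7 shares tested. Shares within a family depend on each other: the log2 fold change of Fosl2 itself was 0.0031, and the Fos share differed by -7.26 points. Without wild-type replicate 1 the Fosl2 share difference was 2.84 points. Fosl1 held 11.2% to 25.1% and Fosb 1.23% to 2.23% over the 6 libraries.

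In the JUN family, Junb held 92.7% ± 0.06 of the summed level per length in wild type, against 92.4% ± 0.51 in the knockout (SD, n = 3 per group). Jun held 4.59% ± 0.16 and 5.12% ± 0.17, without overlap (exact two-sided permutation p = 0.1, adjusted 0.35). The difference was 0.53 percentage points. Jund held 2.71% ± 0.20 and 2.48% ± 0.35 from the unstranded counts. From the sum of the strand columns Jund held 13.6% ± 0.9 and 12.2% ± 1.6, and Junb 81.5% ± 0.7 and 82.2% ± 1.7. Junb was the main JUN transcript by either counting and in every library.

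**Figure D3:**
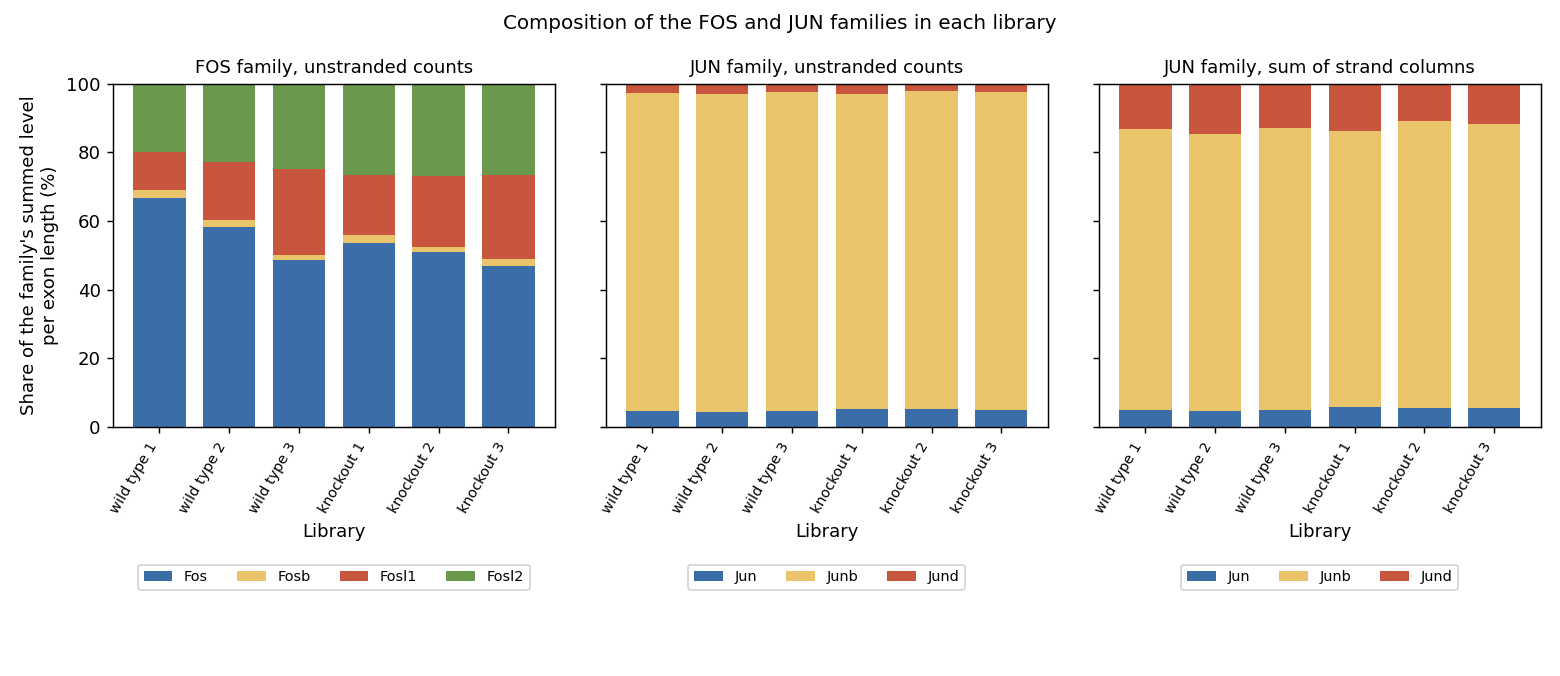
Share of each gene in the summed level per exon length of its family (percent), for each of the 6 libraries: FOS family and JUN family from unstranded counts, and JUN family from the sum of the strand columns. Junb takes most of the JUN level in every library, and the mean Jund share in wild type is 2.71% from unstranded counts and 13.6% from the sum.

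Genes with the most similar library profiles were sought for the 3 members that ranged most widely over the libraries, Fosb, Fos and Egr1. Likeness was the root mean square difference, over the 6 libraries, between log2 CPM profiles centred on each gene's own mean, among 1842 genes averaging 50 CPM or more. For Egr1 the nearest were Hilpda, a hypoxia-induced lipid droplet gene (0.053), the chromatin remodeller gene Chd7 (0.054) and Ppp1r13b, which encodes a p53-binding protein (0.055), against a median of 0.27 over all candidates. Hilpda was at 609, 671 and 861 CPM in wild type and at 482, 737 and 600.5 CPM in the knockout. Like Egr1, it was highest in wild-type replicate 3 and lowest in knockout replicate 1.

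For Fosb the nearest genes were Myadm (0.19), the corepressor gene Tle3 (0.21) and Sik1, a kinase gene induced through CREB (0.22), against a median of 0.54. Sik1 was at 76.1, 52.7 and 37.98 CPM in wild type and at 53.8, 43.8 and 49.8 CPM in the knockout. It shared the Fosb pattern of a high wild-type replicate 1 and a low wild-type replicate 3. For Fos the nearest were CT010467.1 (0.22), the phosphate transporter gene Slc20a1 (0.22) and the metalloprotease gene Adam19 (0.23), against a median of 0.47. The nearest differences for Fos and Fosb were larger than those for Egr1, whose own profile also varied less.

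**Figure D4:**
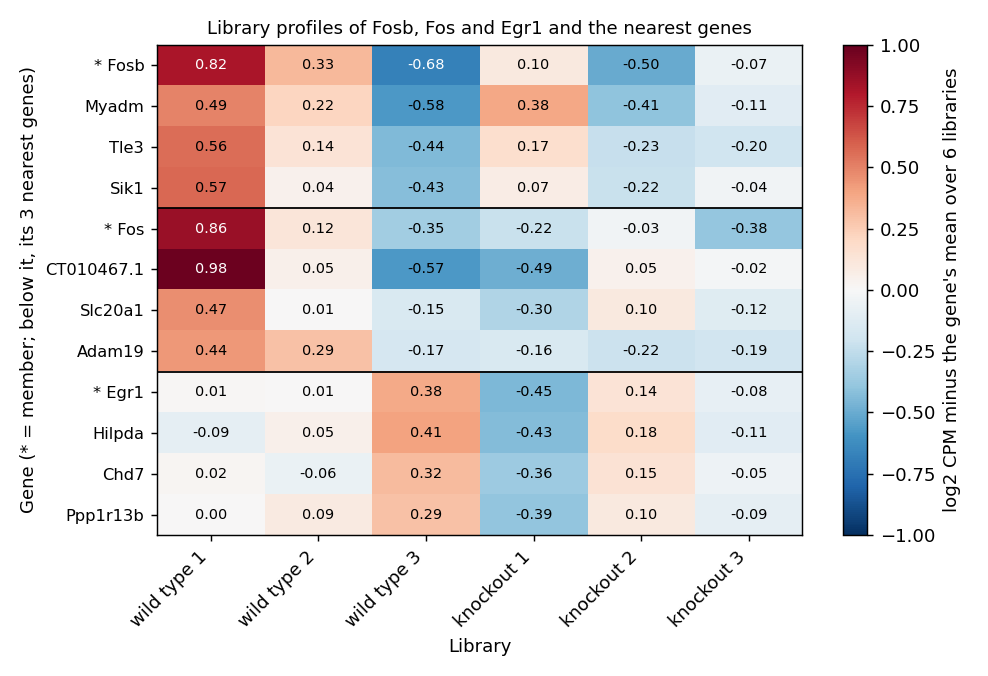
Log2 CPM minus each gene's own mean, by library, for Fosb, Fos and Egr1 (starred) and the 3 genes with the nearest profile to each. Fos and Fosb are highest in wild-type replicate 1, at 0.86 and 0.82, and Egr1 with its neighbours is highest in wild-type replicate 3.

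Among 34 tested genes of a list of other immediate early genes, 0 passed in either direction and 0 had an unadjusted p under 0.05. The median log2 fold change was -0.03. Dusp1, the gene of a phosphatase that switches off MAP kinases, was the most abundant, at 6625 ± 81 CPM in wild type, with 6175 ± 511 CPM in the knockout. Ptgs2, the gene of cyclooxygenase 2, was at 5342 ± 1021 and 4744 ± 1489 CPM. Egr2, a relative of Egr1, was at 59.6, 59.2 and 59.9 CPM in wild type and at 74.03, 68.9 and 67.7 CPM in the knockout, without overlap (log2 fold change 0.24, edgeR adjusted p = 0.86). Groups did not overlap for 11.6% of all tested genes. The estimates for Egr1 and Egr2 had opposite signs, and that difference was not tested.

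Of 29 tested genes for other basic leucine zipper factors, 0 passed. Beside 5.99% over all tested genes, 3 of the 29 had an unadjusted edgeR p under 0.05, all 3 lower in the knockout. The median log2 fold change was -0.07. Crem, which encodes cAMP-responsive activators and the repressor ICER, had the smallest p. It was at 201, 240.2 and 216 CPM in wild type and at 175, 159 and 158 CPM in the knockout, without overlap (log2 fold change -0.42, edgeR adjusted p = 0.54). The others were Atf6, a sensor of endoplasmic reticulum stress, at 75.7 ± 5.8 and 60.9 ± 7.1 CPM, and Cebpd at 102 ± 27 and 73.8 ± 13.1 CPM. Cebpb, a main myeloid factor, was the most abundant at 3742 ± 368 and 3559 ± 26 CPM.

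Of 34 tested genes of the MAP kinase cascade and the serum response factor complex, 0 passed. Beside 5.99% over all tested genes, 2 of the 34 had an unadjusted edgeR p under 0.05. These were Elk3, the gene of a partner of serum response factor, at 10.5 ± 1.0 and 7.22 ± 1.62 CPM, and Mrtfb, the gene of a coactivator of serum response factor, at 0.26 ± 0.17 and 1.6 ± 1.1 CPM. Mrtfb rests on few counts, and knockout replicate 3 was at 0.35 CPM against 1.85 and 2.59 in the others. Mapkapk2, the gene of a kinase downstream of p38, was the most abundant at 3052 ± 502 and 2952 ± 202 CPM. Mapk14, the gene of p38 alpha, was at 28, 17.1 and 11.6 CPM in wild type and at 14.2, 11.8 and 11.2 CPM in the knockout. Its highest library was wild-type replicate 1, as for Fos and Fosb. Other genes of the list went the other way, with Mapkapk2 and Map2k3 lowest there, at 2565 and 929 CPM.

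Of 20 tested genes whose control by AP-1 has been described, 0 passed. Beside 5.99% over all tested genes, 3 of the 20 had an unadjusted edgeR p under 0.05. Il6 was at 4.56 ± 1.08 CPM in wild type, with 9.49 ± 3.04 CPM in the knockout and no overlap (log2 fold change 1.06, edgeR adjusted p = 0.54). Hmox1, the gene of heme oxygenase 1, was at 232, 209.7 and 180 CPM in wild type and at 264, 280.4 and 282 CPM in the knockout. Its groups did not overlap either (log2 fold change 0.41, edgeR adjusted p = 0.57). Spp1, the gene of osteopontin, was at 3391 ± 574 and 2657 ± 378 CPM (log2 fold change -0.35). Plaur, the urokinase receptor gene, was at 4289 ± 415 and 3916 ± 414 CPM. These genes thus held estimates in both directions, with a list median of 0.06.

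**Figure D5:**
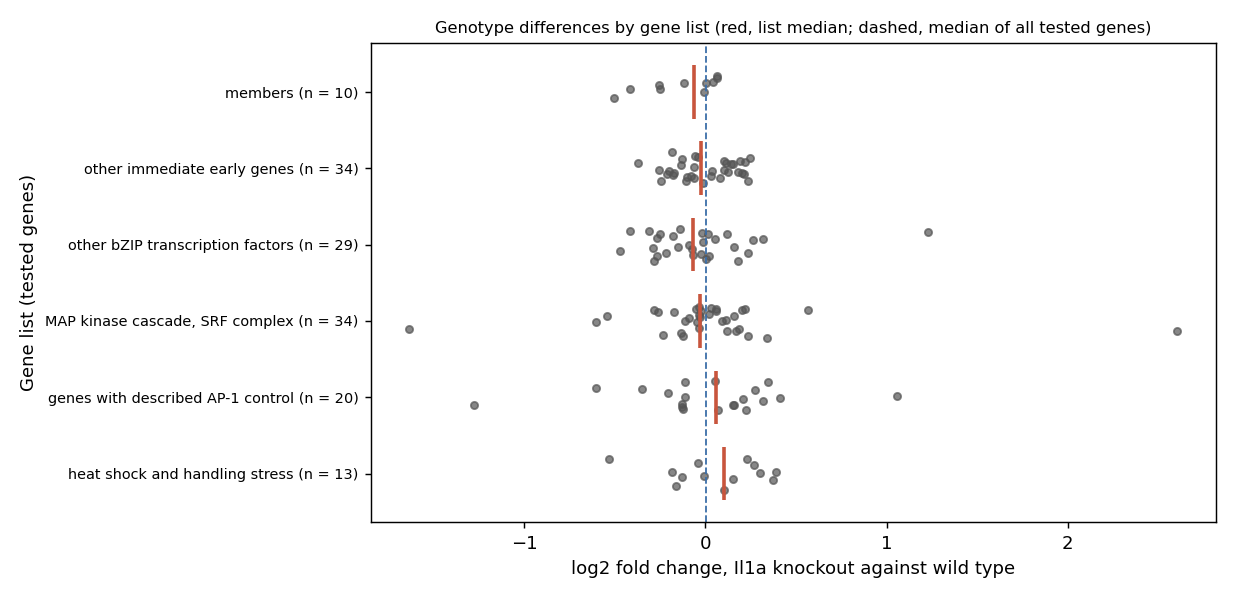
Log2 fold change, Il1a knockout against wild type, of every tested gene in the member list and 5 further lists; red bars are list medians and the dashed line is the median of all 11924 tested genes. All list medians lie between -0.07 and 0.10.

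Of 13 tested heat shock genes, 0 passed and 0 had an unadjusted p under 0.05, with a median log2 fold change of 0.10. Over the 6 libraries, corneal epithelial markers summed to 23.02 to 162 CPM, keratocyte and fibroblast markers to 12.4 to 41.8 CPM, endothelial markers to 32 to 45.3 CPM, and erythroid and platelet markers to 3.08 to 38.9 CPM. Lymphocyte markers summed to at most 1.76 CPM, with 4 of 8 at 0 in every library (Cd3e, Cd79b, Nkg7 and Klrb1c), and dendritic cell markers to at most 2.99 CPM, with Siglech at 0. Monocyte and macrophage markers summed to between 303 and 307 CPM in wild type, against 365 to 395 CPM in the knockout, with no gene of the list at 0 in all libraries. For 12 of their 13 tested genes the estimate was higher in the knockout, 8 with an unadjusted p under 0.05 and 0 with an adjusted one (edgeR). That 0 depended on the fit: DESeq2 called C1qb, F13a1 and Pf4 (adjusted p = 0.0021, 0.00046 and 0.0017), edgeR with a replicate block called F13a1 (0.048), and edgeR without knockout replicate 1 called Pf4 (0.031). Most of that sum was Csf1r and Adgre1, at 178 ± 12 and 68.3 ± 13.3 CPM in wild type, while C1qa, C1qb and C1qc were each below 1 CPM there on average. The part of these cells in the values of Fos, Jun and the other members was not tested.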

How the data were processed

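The deposited files hold raw counts per gene, unstranded and for each read strand; the authors applied no normalization that the values show. Per the submitters' processing notes, FastQC 0.11.9, Trimmomatic 0.39 and STAR 2.7.8a were used with GRCm38 and mm10; the annotation release is not given in the sources used here. Libraries came from the low-input SMART-seq v4 kit, per the labels' protocols. The unstranded counts were filtered (filterByExpr), scaled by TMM and tested across all genes with edgeR 4.0.16 (robust quasi-likelihood test, Benjamini-Hochberg threshold 0.05; limma 3.58.1, DESeq2 1.42.0, R 4.3.3), without a replicate term. Alternatives were other scalings and filters, DESeq2, limma-voom, shares without length scaling, the sum of the strand columns, a replicate block and leaving out each library. Symbols, positions and merged exon lengths came from GENCODE M21, which matched 54723 of 54838 identifiers; 212 of 213 list entries matched 1 gene, and Ddit3 was not used because it matched more than 1. Log2 CPM used a prior count of 3. With 3 libraries per genotype an exact permutation p cannot be below 0.1. Members and lists were chosen with earlier results of these data known. Named list genes were the 4 with the smallest p and the 3 most abundant per list, of which the text gives a part. Hspa1a, Hspa1b, Bag3, Hspe1 and the single macrophage markers were named after their values were seen. Counting precision covers counting error only, with 441 to 183098 counts per member and library.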

Additional observations from a re-analysis of the deposited data

How the results depend on the processing

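Each of the 10 genes was refitted under 15 alternatives, and in 150 of these fits 0 passed the adjusted threshold; 137 kept the sign of the main estimate and 13 did not. The lowest adjusted p was 0.061, for Fos without a filter (edgeR). The absence of members with an unadjusted p under 0.05 depended on the fit. Fos had 0.00049 (edgeR without a filter), 0.0051 (edgeR without wild-type replicate 3) and 0.022 (DESeq2). Fosb had 0.025 and 0.0096 in the same edgeR fits. Jund had 0.030 (edgeR, sum of strand columns) and 0.032 (edgeR without knockout replicate 1), and Egr1 0.040 (edgeR without knockout replicate 2). The sign changes were in genes with estimates near 0. Fosl2 was at -0.0044 without a filter and -0.0019 by DESeq2, and Ier3 at 0.038 by library size alone and 0.0071 with a filter at 5 CPM in 3 libraries. Leaving out each library in turn, log2 fold changes ran from -0.025 to 0.21 for Fosl1, -0.10 to 0.13 for Fosl2, -0.0088 to 0.062 for Jun, -0.18 to 0.16 for Ier3 and 0.01 to 0.12 for Atf3. Junb was at -0.06 by library size alone. The share difference ran from -0.39 to 0.20 percentage points for Fosb and -0.061 to 6.89 for Fosl1. For Junb it was -0.30 points, and 0.71 from the sum of the strand columns, which raise Jund. Over all genes 185 were called without a filter, 21 with the filter at 5 CPM, 69 by DESeq2 and 7 to 24 with a library left out: 7 each when wild-type replicate 1 or 2 was left out and 24 when knockout replicate 1 was. Without a filter 1 gene of the MAP kinase list (Mrtfb) and 2 of the AP-1 control list (Il6 and Mmp3) were called, as were the macrophage markers C1qb, C1qc, Mrc1, F13a1 and Pf4 (higher in the knockout) and Krt5, Krt15 and Lyve1 of the epithelial and endothelial lists (lower). DESeq2 also called Lyve1, and the fit without knockout replicate 1 the neutrophil marker Mmp8 (lower). With a replicate block 20 genes were called and 0 members. Same-numbered libraries deviated with correlations of 0.14, 0.057 and 0.0034 across genes. All pairs of a wild-type and a knockout library ran from -0.188 to 0.145, and not every library correlated best with its own number. The labels do not say whether same-numbered libraries share a day or litter, and correlations this weak cannot decide it.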
